A study of Mus musculus with 9 samples.

Results

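Design B of the Affymetrix MGU74v2 series was the second of 3 complementary array designs on which the same kind of sample was measured, and its 3 arrays are described here across all genes that they name. The arrays were those titled with the letter B, and their members were all probe sets whose platform annotation gives exactly 1 gene symbol. These numbered 10581 of the 12411 probe sets on design B and of the 36701 on all 9 arrays of the series. They stand for 7542 genes. Of these genes, 5423 had no probe set with 1 symbol on design A, the design that carries most of the well-known genes, and 2119 were carried by both designs. The annotation of design A names 25 of the 5423 in probe sets with several symbols, which were not used. Probe sets were ordered by their position, which is the percentage of all probe sets of an array with an equal or lower intensity, averaged over the 3 arrays. Positions run from near 0 to 100.

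All 9 arrays carried a single condition. Pups were homozygous for a Tie2-GFP transgene, in which the promoter of the endothelial receptor gene Tek (Tie2) drives green fluorescent protein, and they had received intraperitoneal APB5, an antibody that neutralises PDGFRb, from postnatal day 0 to day 7. GFP-positive cells were sorted at day 8 from retinas that had been pooled and dissociated with papain, and their RNA was amplified before labelling. No untreated, isotype-treated or GFP-negative group was among the samples used here, so nothing below measures an effect of the antibody and no test between conditions was possible. The series describes the arrays of a design as a triplicate and does not say whether they carried RNA from separate pools of mice, so each SD is a spread between arrays that may be technical. The Tie2 promoter is also active in some blood cells, so the sort can hold cells other than endothelium.

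Background on the cells helps in reading the order. Retinal endothelium grows across the postnatal retina as a sheet of sprouts led by tip cells, matures into arteries, veins and capillaries, and builds a barrier from tight junctions and selective transporters under the control of Wnt signals. Pericytes are recruited to these vessels through PDGFRb. Endothelial cells sense flow through mechanosensitive channels and junctional receptors, and they shape their junctions through the actin cytoskeleton. Probe sets differ in how well they hybridise, so a position is a property of a probe set on these arrays and not a transcript level that can be set against that of another gene. In a bulk sample like this, few cells of a type and little RNA per cell cannot be told apart.

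The 3 arrays were close to each other. Their median intensities were 43.6, 42.9 and 44.5, and the intensity at the 90th percentile was 202, 192 and 197. The rank correlation of positions across probe sets was 0.98 to 0.99 for the 3 pairs of arrays, and the median probe set had an SD of 0.13 on the log2 scale. How the intensities were scaled before deposit is unknown, so the close medians do not measure agreement. Array 2 read low for a limited group of bright probe sets, which are described after the lists.

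The promoters of 4 endothelial genes with no probe set on design A are shown first, because the endothelial list is the group of genes that stood highest on these arrays. They are the highest members of that list that lay in the top 10% of all 3 arrays, have a single start in the table of sequences and hold a match to the motifs searched. The sequences are 300 bases from RefSeq on GRCm38.p6, from 250 bases before the start to 50 after it, written 5′ to 3′ on the strand of the gene. Capitals mark CCGGAA or CAGGAA on either strand, a core of sites bound by ETS transcription factors. A motif can overlap the reverse complement of another, but no matches overlap in these 4 sequences.
Heg1, chr16:33684216-33684515 (plus strand): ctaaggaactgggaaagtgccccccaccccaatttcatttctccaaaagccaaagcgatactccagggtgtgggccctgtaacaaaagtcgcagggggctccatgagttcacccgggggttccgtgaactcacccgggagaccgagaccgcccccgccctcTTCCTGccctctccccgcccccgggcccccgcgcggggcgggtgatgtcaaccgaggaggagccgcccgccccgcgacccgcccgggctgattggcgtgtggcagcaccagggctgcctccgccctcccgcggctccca
Adgrl4, chr3:151437632-151437931 (plus strand): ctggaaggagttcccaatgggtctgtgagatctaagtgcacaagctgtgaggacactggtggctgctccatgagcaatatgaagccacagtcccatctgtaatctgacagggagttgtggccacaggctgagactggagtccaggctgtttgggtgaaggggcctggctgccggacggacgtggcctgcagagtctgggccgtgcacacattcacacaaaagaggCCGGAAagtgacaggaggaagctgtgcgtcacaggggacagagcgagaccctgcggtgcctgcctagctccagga
Clec14a, chr12:58269209-58269508 (minus strand): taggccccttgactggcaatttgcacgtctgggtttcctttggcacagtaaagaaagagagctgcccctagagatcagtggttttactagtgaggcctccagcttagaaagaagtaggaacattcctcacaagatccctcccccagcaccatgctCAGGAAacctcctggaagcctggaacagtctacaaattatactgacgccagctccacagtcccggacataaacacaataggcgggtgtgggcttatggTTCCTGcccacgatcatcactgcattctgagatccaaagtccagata
Gimap6, chr6:48708195-48708494 (minus strand): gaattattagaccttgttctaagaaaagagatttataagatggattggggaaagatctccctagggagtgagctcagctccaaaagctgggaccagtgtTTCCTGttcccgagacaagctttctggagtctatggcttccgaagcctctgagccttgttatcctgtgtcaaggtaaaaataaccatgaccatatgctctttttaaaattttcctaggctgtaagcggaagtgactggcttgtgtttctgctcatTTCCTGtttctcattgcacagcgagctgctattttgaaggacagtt

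Heg1, a transmembrane receptor of endothelial junctions that is needed for heart and vessel integrity, had a CpG-rich promoter with 25 CpG dinucleotides and 1 match, and its GC content was 69.0%. Adgrl4, an adhesion receptor of angiogenic endothelium, had 8 CpG dinucleotides and 1 match. The promoters of Clec14a, an endothelial lectin, and Gimap6, a GTPase of immune and endothelial cells, each held 2 matches, with 5 and 4 CpG dinucleotides. Of all 27025 promoters in the table, 41.4% held at least 1 of the 2 motifs on either strand. Of the genes not on design A, those in the top 10% of all 3 arrays had a promoter in the table in 81.5% of cases. Their promoters held a motif in 47.4% of cases, and those of genes above the floor but not in the top 10% in 45.6%. The floor is the 40th percentile, to be exceeded or met on all 3 arrays by at least 1 probe set. The high genes had a median of 24 CpG dinucleotides per promoter against 20 in that middle class and 7 over the whole table, which also holds many predicted genes. For the endothelial list (18 of 29 genes with a promoter) and for genes below the floor (78.9%), fewer than 80% of members had a sequence, so no share is given and the check is void there. A match is a description of these letters and shows no binding.

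Genes found by design B and not by design A occupied the same range of positions as the others. Their median position was 53.5 ± 0.090 (SD, n = 3 arrays), against 50.5 ± 0.13 for genes also on design A, where the position of a gene is the mean over its probe sets. Among probe sets above the floor the order was the other way, 72.2 against 73.1, so no difference between the classes is claimed. A gene was called high when at least 1 of its probe sets lay in the top 10% of each of the 3 arrays, which held for 12.2% of all 7542 genes. It held for 649 of the 5423 genes not on design A and for 273 of the 2119 genes on both designs, shares near that of all genes. A gene with several probe sets can pass more easily. Among genes with a single probe set, 8.47% of those not on design A and 10.2% of those on both designs were high.

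The gene at the top of those not on design A was Heg1. Its probe set read 3280, 3164 and 3403 on the 3 arrays, at a position of 99.98, and only Ndrg3 and Pik3r1 lay higher among named probe sets. The next in order was Daam1, a formin that nucleates actin filaments downstream of Wnt planar polarity signals, with 2977, 1887 and 2865. The second probe set of Daam1 lay at position 14.8, so its rank rests on 1 of 2 probe sets. Septin8, a filament-forming GTPase, read 2904, 1458 and 2409 on its highest of 4 probe sets. Both Daam1 and Septin8 were lower on array 2 than on the others, by the rule given below.

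Among the 40 highest genes, those for proteins of the cell surface are given first. Piezo1, the mechanically gated cation channel through which endothelium senses flow, read 2197, 1897 and 1878 on its only probe set. Lpar4 and Lpar6, receptors for the lipid mediator lysophosphatidic acid, read 2001, 1400 and 1781 and 2030, 1349 and 1521. The SD of the position of these genes was at most 0.0335 points, but positions this near 100 leave little room to vary. Their intensities spanned 0.23 log2 for Piezo1, 0.52 for Lpar4 and 0.59 for Lpar6. The other probe set of Lpar6 lay at 63.6. Lpar4 also lay at 93.0 ± 0.38 (SD, n = 3 arrays) on design C. Unc5b, a netrin and Robo4 receptor of arterial and tip endothelium, read 1140, 1341 and 1194 on the highest of 3 probe sets, the lowest of which was at 58.4. Array 2 gave the highest reading for Unc5b and the lowest for both lipid receptors. Tmem204, a claudin-like protein of endothelial junctions, read 1126, 1061 and 1127. Dysf, a membrane repair protein, read 1229, 1121 and 1174, and both of its probe sets lay at 99.3 or higher. Mpzl1, a membrane glycoprotein that binds the phosphatase SHP2, read 1017, 906 and 795.

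Others of the 40 act on the cytoskeleton or on small GTPases. Dlc1, a GTPase-activating protein, read 1746, 1527 and 1395. Rai14, an actin-binding ankyrin repeat protein, read 1531, 1329 and 1415, and its other probe set lay at 46.5. Kank1, which links integrin adhesions to the cell cortex, read 1052, 872 and 1048. Arhgef12, a guanine nucleotide exchange factor that acts downstream of G protein-coupled receptors, read 895, 909 and 879 on the highest of its 4 probe sets, the lowest of which lay at 57.2. The 3 readings of Arhgef12 were nearly equal, whereas array 1 was the highest for Dlc1 and Rai14.

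Matrix proteins, chromatin proteins and the secretory pathway accounted for further genes among the 40. Pxdn, a peroxidase that cross-links collagen IV in basement membranes, read 947, 841 and 870, and Vwa1, a matrix protein that binds perlecan, read 874, 1070 and 878. Hmgn3, a nucleosome-binding protein, read 1254, 963 and 1185. Taf13, a subunit of the general transcription factor TFIID, read 1132, 885 and 1221, and lay at 98.5 ± 0.25 (SD, n = 3) on design C, although its other probe set on design B was at 19.4. Creb3l2, a membrane-bound transcription factor of the secretory pathway, read 1122, 973 and 930. None of these 5 genes had array 2 over 0.5 log2 below both others. Tmem258, a subunit of the enzyme that attaches N-glycans to proteins in the endoplasmic reticulum, read 1998, 1997 and 1967, the closest agreement near the top of the order. It lay at 44.1 ± 5.6 on design C. Emc7, part of the complex that inserts membrane proteins, read 763, 907 and 1062, and lay at 55.4 on design C. Cers5, a ceramide synthase, read 924, 871 and 808. Denr, which helps to restart ribosomes after short upstream reading frames, read 1391, 1296 and 1458.

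The remaining genes of the 40 had other roles or none assigned. Mob4, a subunit of phosphatase complexes, read 1284, 1070 and 1331, with its other probe set at 91.4. Pja2, a ubiquitin ligase of cyclic AMP signalling, read 1213, 978 and 1110, but the lowest of its 5 probe sets lay at 6.65. Rbis, a ribosome biogenesis factor, read 1205, 933 and 1139. Abhd17b, which removes palmitate from proteins, read 1545, 859 and 968, with array 1 standing above the others. Garre1, Tmem184b, Dmac1 and Kbtbd11 had readings between 801 and 1066. The clone-named genes C130074G19Rik and 2010204K13Rik read 1891, 1611 and 1455, and 1140, 790 and 893, on single probe sets.

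Several of the 40 owed part of their order to arrays 1 and 3. Mall, a membrane protein of lipid rafts, read 2376, 732 and 2161. Sap130, a subunit of the Sin3A corepressor, read 2572, 1032 and 1938. The ubiquitin protease Usp11 read 2005, 917 and 1529, the ubiquitin ligase Trim33 1997, 892 and 1957, and the conjugating enzyme Ube2q1 1778, 861 and 1429. Mad2l2, a DNA repair and mitosis protein, read 1703, 740 and 1659, and the splicing factor Zmat2 read 1770, 731 and 1399. In all of these, array 2 read lower than both others by over 0.5 log2, as it did for Daam1 and Septin8, and all of them stayed above the 99th percentile as a mean. The rule held for 9 of the 40 genes, and array 2 was the lowest of the 3 for 28 of the 40. Of the 40, 21 had a single probe set on design B. Of the 19 with several, 7 had a probe set below position 40, where by definition about 40% of all probe sets of an array lie. The lowest lay at 9.71 for Trim33, 13.8 for Abhd17b, 21.2 for Septin8 and 25.2 for Garre1, beside those given above for Daam1, Pja2 and Taf13. Design C carried 9 of the 40, 2 of them at a gene position above 90 and none below 40.

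**Figure D1:**
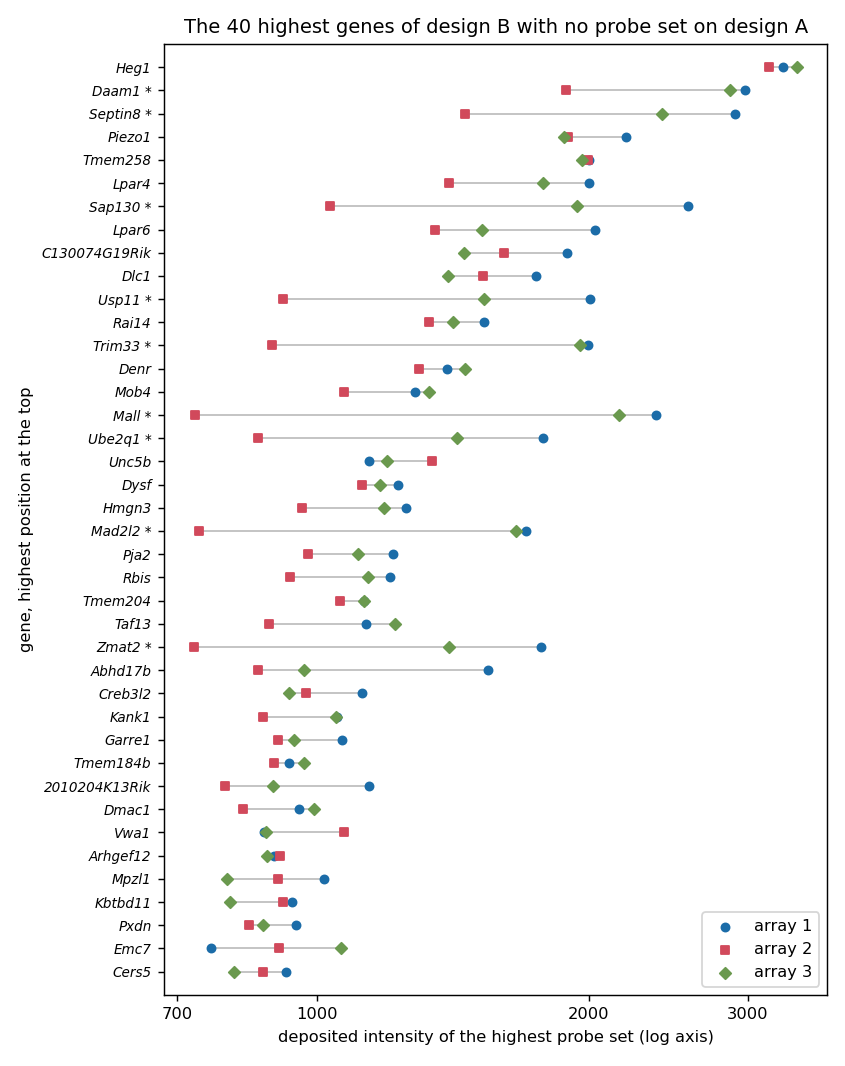
Deposited intensity (log axis) of the highest probe set on each of the 3 arrays of design B for the 40 highest genes with no probe set on design A; an asterisk marks array 2 lying over 0.5 log2 below both others. Heg1 sits near 3280 on all arrays, whereas Mall reads 732 on array 2 against 2376 and 2161.

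Among genes that design A also carries, the highest probe sets belonged to Ndrg3, with 5849, 5178 and 6242, and to Pik3r1, a regulatory subunit of PI3 kinase, with 4216, 2881 and 4425. Epas1, the hypoxia-inducible transcription factor HIF-2alpha that is abundant in endothelium, read 3252, 3978 and 3397. Fth1, the ferritin heavy chain, read 2939, 3148 and 3231. Fosl2 and Klf6, transcription factors of the immediate early response, read 3263, 2500 and 2789, and 2469, 1702 and 2058. Aplnr, the apelin receptor, read 2301, 2577 and 2397, Cd93, an endothelial lectin, 2194, 1633 and 1558, and the lysyl hydroxylase Jmjd6 2769, 1137 and 2383. Array 2 lay over 0.5 log2 below both others for Pik3r1 and Jmjd6 and for none of the other 8 of these genes. The clone-named gene 2410004B18Rik read 3344, 2442 and 3247. On design A, Fth1 lay at 95.8, Klf6 at 98.1 and Cd93 at 99.9, but Ndrg3 at 22.3, Pik3r1 at 13.2 and Epas1 at 34.1. High on design B therefore did not imply high on design A.

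Endothelial genes stood far above the rest of design B. Of the 63 genes in the pan-endothelial list, 29 were on design B, and 18 of these (62.1%) were high, beside 12.2% of all genes. Their median position was 94.9 ± 0.40 (SD, n = 3 arrays), against 52.8 ± 0.12 for all genes. The median was 94.4, 95.0 and 95.2 on the 3 arrays, a narrow range. Of the 18 members with no probe set on design A, 12 were high, with a median of 95.3. None of the high members rested on a probe set that was low on array 2. Lists are described by counts and medians, and no test was made of them.

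The adhesion G protein-coupled receptor gene Adgrf5 read 905, 790 and 834, with both probe sets at 94.4 or above, and the related Adgrl4 read 639, 605 and 672. Adgrl4 also lay at 99.1 on design C. The 3 arrays of each gene lay within a narrow band. Fgd5, an exchange factor for Cdc42 found in endothelium, read 856, 735 and 751. Mmrn2, a matrix protein that binds Clec14a and Cd93, read 618, 624 and 643 here, but lay at 12.9 on design C. Esam, an adhesion molecule of endothelial tight junctions, read 513, 594 and 561, and Clec14a read 565, 509 and 542. Gimap6 read 453, 432 and 410, and Exoc3l2, a subunit linked to the exocyst and VEGF receptor traffic, 294, 373 and 317. Ppp1r16b, an endothelial phosphatase regulator also called TIMAP, read 300, 293 and 304, and Palmd, a paralemmin-related protein, 242, 215 and 214. Robo4, the endothelial Roundabout receptor, read 229, 217 and 200, at position 91.2 ± 0.87 (SD, n = 3), just inside the top 10%.

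Just outside it lay Ushbp1, with 196, 240 and 202, at position 91.0 ± 1.8, and Fli1, an ETS factor, with 241, 195 and 172, at 90.2 ± 2.2 (SD, n = 3 each). Both passed the 90th percentile as a mean but not on all 3 arrays. Plvap, which forms the diaphragms of fenestrae and caveolae and is low in barrier vessels, had 3 probe sets from position 4.57 to 89.1. Its highest probe set read 226, 163 and 175. The lowest members were Myct1 at 41.7 ± 2.7 and Calcrl, the receptor for adrenomedullin, at 14.5 ± 7.1 (SD, n = 3 each). Calcrl read 15.6, 10.9 and 21.2. Calcrl lay at 9.30 on design A as well.

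Tip cell and angiogenic genes had a median position of 88.3 ± 0.72 (SD, n = 3 arrays), and 7 of the 13 on design B were high (53.8%). Apln, the ligand of Aplnr made by tip cells, read 879, 634 and 657, at 98.9, and lay at 32.5 on design A. Esm1, a proteoglycan released by sprouting endothelium, read 571, 673 and 828. Ednrb, the endothelin B receptor, read 375, 313 and 275, and Trp53i11 306, 337 and 301. Array 1 was the lowest for Esm1 and the highest for Apln and Ednrb. Dll4, the Notch ligand of tip cells, read 92.0, 92.6 and 87.2, at 74.6 ± 1.0. Vegfa, which tip cells respond to and glia secrete, was the lowest, with 5.59, 9.57 and 10.8. Of the 9 arterial and venous genes 3 were high, and the median was 73.0 ± 1.5. Aplnr and Unc5b are in both lists and among the high genes of each. The arterial semaphorin Sema3g read 790, 653 and 697. Jag1, a Notch ligand, had probe sets at 89.2 and 48.3, and Fbln5, an elastic fibre protein, read 159, 214 and 164.

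Genes of the blood-retina barrier had a median position of 82.8 ± 0.29 (SD, n = 3 arrays), and 8 of 24 were high (33.3%), 5 of them not on design A. Slc40a1, the iron exporter ferroportin, read 706, 868 and 891. Sgms1, a sphingomyelin synthase, read 623, 427 and 423. Slc39a10, a zinc importer, read 428, 509 and 459 on 1 probe set, but its other lay at 34.3. Slco1a4, an organic anion transporter of brain endothelium, read 318, 350 and 357, and Abcc4, an efflux pump, 348, 343 and 325. For the last pair no array departed from the others by over 0.5 log2. Of the Wnt pathway genes in the list, the Norrin receptor Fzd4 read 310, 294 and 331, and the nuclear effector Lef1 read 241, 250 and 241. The feedback inhibitors Nkd1 and Notum lay at 91.1 ± 4.3 and 88.8 ± 1.5, and Axin2 at 75.3 ± 2.8. Adgra2, an adhesion receptor that aids Wnt7 signalling, lay at 73.5 ± 3.5. Nkd1 read 150 on array 2 against 261 and 270. Slc22a8, an organic anion transporter, lay at 20.2 ± 2.1, and the efflux pump Abcg2 was the lowest of the list, at 12.5, but lay at 98.3 on design A.

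Lists of other cell types held few or no high genes. Of the 11 mural cell genes on design B none was high, and the median position was 27.9 ± 1.9 (SD, n = 3 arrays). Rgs5 and Rgs4, regulators of G protein signalling that mark pericytes, read 4.99, 6.66 and 5.73, and 5.89, 7.04 and 6.24, near the bottom of all 3 arrays. On design A they lay at 36.0 and 26.6, and Rgs4 lay at 60.7 on design C. Mylk and S1pr3 also lay higher on design A than here, at 96.2 and 49.2. Nr2f2, Abcc9 and Myh11 lay lower there, at 27.8, 3.63 and 10.3. The pericyte proteoglycan Cspg4 lay at 51.5 ± 2.0 and Higd1b, a mitochondrial protein of pericytes, at 47.8 ± 2.6. Steap4, a metal reductase, was the highest, with 95.7, 114 and 115. Of the 9 microglia and macrophage genes none was high, with a median of 30.7 ± 1.3. The microglial receptors Siglech and Gpr34 lay at 15.0 and 7.65, Tmem119 at 50.1 ± 1.4 and Olfml3 at 69.7 ± 0.90. The 2 lymphocyte genes, Cd3e and Ms4a1, lay at 6.73 and 21.2.

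None of 24 inner retinal neuron genes was high, beside 12.2% of all genes, with a median of 30.1 ± 2.2 (SD, n = 3 arrays). The neurofilament gene Nefl read 7.43, 5.17 and 8.89 and the vesicular glutamate transporter Slc17a6 8.41, 11.0 and 9.80, whereas Cplx1, a synaptic vesicle protein, read 135, 111 and 116. Elavl3 and Cplx2 each had 1 probe set above position 75 and 1 below position 20. None of 13 Muller glia and astrocyte genes was high, with a median of 40.9 ± 3.8. Of these, 7 had a probe set above the floor. The glutamate transporter gene Slc1a2 was the highest by gene position, at 67.7 ± 10.1. The highest probe set of Aldh1l1, a folate enzyme of astrocytes, lay at 81.1, and that of Glul, glutamine synthetase, read 76.2, 106 and 97.2. The water channel Aqp4 and the potassium channel Kcnj10 lay at 6.20 and 7.75. That list also held Spc25, a kinetochore gene, and Vegfa. None of 6 fibroblast genes was high (median 19.8 ± 0.67), Col5a2 being the lowest, with 3.37, 6.02 and 7.09. Design A placed Col5a2 far higher, at 79.7, whereas design C placed it at 12.3. None of 9 pigment epithelium and lens genes was high (median 41.2 ± 2.3), and the lens gene Lim2 was their highest, with 117, 156 and 216. Among the 7 tissue-foreign genes, chosen as specific to unrelated organs, none was high (median 31.7 ± 2.5). The kidney transporter gene Slc12a3 read 250, 141 and 237, so it lay at 90.2 ± 4.3 and was low on array 2.

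Of the other lists, 2 need a remark. The photoreceptor list had 2 genes on design B, Rdh12 at 39.1 ± 3.5 and Fcmr at 74.9 ± 6.5 (SD, n = 3 each). Fcmr encodes an Fc receptor for immunoglobulin M and entered that list under an older symbol, so Rdh12 alone speaks for photoreceptors. In the erythroid and platelet list 2 of 7 genes were high (28.6%, beside 12.2% of all genes), and the median was 57.5 ± 4.4. The platelet receptor Treml1 read 884, 300 and 769 and is among the probe sets that were low on array 2. The erythroid spectrin Sptb read 281, 294 and 300, with its other probe set at 68.2. The platelet chemokine Ppbp lay at 9.82 ± 3.5. Without probe sets low on array 2, 1 gene of the list was high.

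**Figure D2:**
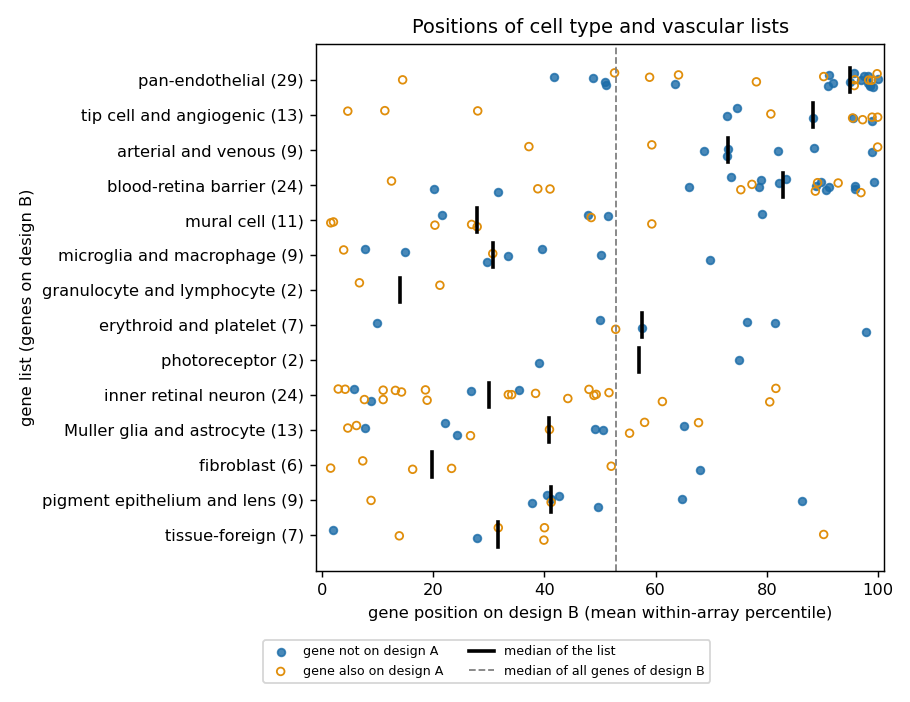
Position on design B (mean within-array percentile) of each gene of 14 lists; filled points are genes not on design A, open points genes also there, bars list medians and the dashed line the median of all genes. The pan-endothelial median lies at 94.9 and the mural cell median at 27.9.

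Families grouped by gene name differed in their share of high genes, again beside 12.2% of all genes. Genes of the respiratory chain and ATP synthase were high in 5 of 14 cases (35.7%). Cox4i1, a subunit of cytochrome oxidase, read 439, 526 and 550, and Ndufs7, of complex I, 390, 383 and 422, but Cox6b1 lay at 4.18 here and at 91.5 on design A. Semaphorins, plexins, ephrins and related guidance genes were high in 6 of 29 cases, and G protein-coupled receptors in 9 of 47 (19.1%), or 7 without probe sets low on array 2. All 9 were genes not on design A, as were 41 of the 47. Receptors whose symbols the grouping missed are not counted, such as Aplnr and Ednrb, both high and on design A. Proteins named only as transmembrane (Tmem) were high in 24 of 108 cases (22.2%). Of the high genes 22 were not on design A, as were 96 of the 108.

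Genes of ubiquitin conjugation and removal were high in 27 of 172 cases (15.7%), and in 21 without probe sets low on array 2. Trafficking genes were high in 15 of 108 cases, led by Tmed5, a cargo receptor of the early secretory pathway, with 677, 737 and 743, and chaperones in 6 of 34, led by Dnajb4, with 794, 740 and 818. Splicing factors and RNA helicases were high in 7 of 49 cases, led by Snrpf, a core spliceosome protein, with 811, 693 and 786. Solute carriers (20 of 170) and cell cycle genes (10 of 74) had shares near that of all genes. Slc43a2, an amino acid transporter, read 799, 863 and 918, and the mitotic kinesin gene Kif15 477, 395 and 370 on the highest of its 4 probe sets. The shares of these last families are not results about their members.

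At the other end, none of 27 genes with keratin names and none of 17 with homeobox names was high. The first group included keratin-associated proteins such as Krtap4-7, and the second antisense transcripts such as Hoxd3os1. The ion channel group, formed by gene name, left out the channel gene Piezo1, which was high. The count in this group was 1 of 53, the high gene being the ATP-gated channel P2rx7, with 359, 285 and 317. It was 11 of 202 for zinc finger proteins (5.45%), 18 of 266 for genes with RIKEN clone names (6.77%) and 6 of 196 for predicted genes and expressed sequences (3.06%). Cytokines, chemokines and their receptors were high in 2 of 31 cases. These were the interferon gamma receptor chain Ifngr2, with 249, 254 and 230, and Tnfrsf12a, the receptor for TWEAK, with 210, 230 and 224. Of 19 interferon-inducible genes by name 1 was high, the guanylate-binding protein Gbp9, with 383, 328 and 340. Among 12 collagens and laminins 1 was high, the laminin chain Lamb2 with 383, 331 and 377. Further families had shares below that of all genes, but only by a few genes each. As for the collagens and laminins, these shares are not results about their members. High were 2 of 24 mitochondrial ribosomal proteins, 2 of 23 translation genes, and 2 of 29 actin, tubulin and myosin genes. So were 1 of 15 integrins and claudins, 1 of 10 genes grouped with histones, and 13 of 139 coiled-coil and Fam genes. Grouping was by name, and the high gene of the histone group was Hmgn3, a nucleosome-binding protein and not a histone. Among the translation genes the high members were Eif1ax and the kinase Eif2ak1, which was low on array 2. Of 6 proteasome genes 2 were high, or 1 without probe sets low on array 2.

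**Figure D3:**
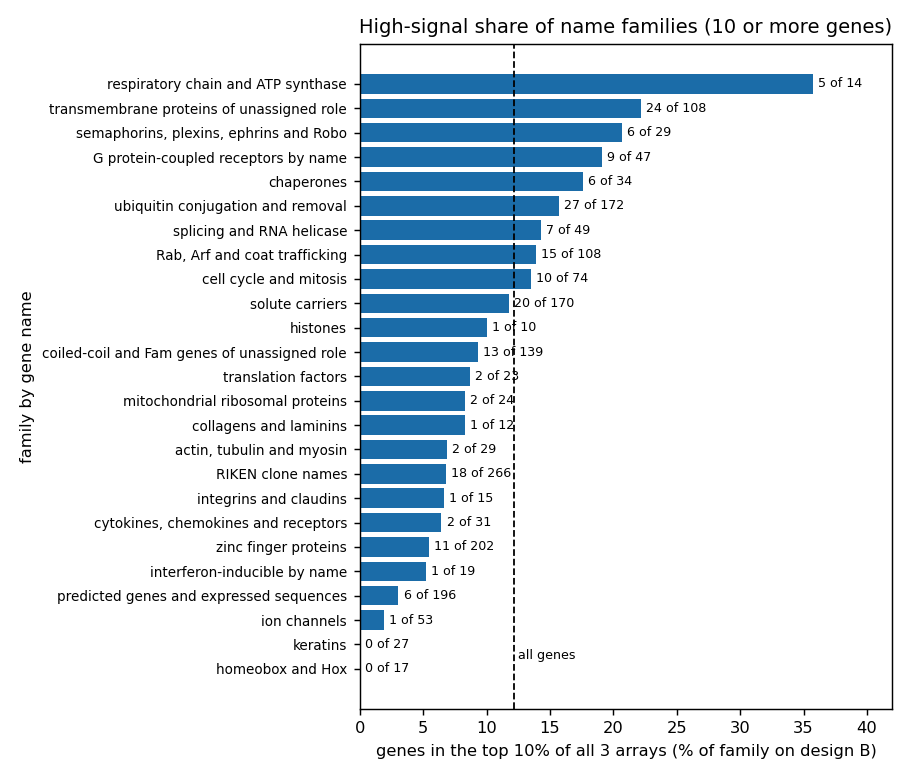
Share of genes in the top 10% of all 3 arrays (percent, from 0) for families defined by gene name with 10 or more genes on design B that are reported here; numbers give high genes of all genes, and the dashed line marks the 12.2% of all genes. Respiratory chain genes reach 35.7%, and keratins and homeobox genes are at 0.

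The place of a gene depended strongly on which probe set measured it. For the 2119 genes on both designs, the rank correlation between the position on design A and on design B was 0.09 across genes, which are not independent replicates, although positions on arrays of design B agreed at 0.98 or more. The median gap between the designs was 24.7 points, whereas the median SD over arrays was 2.09 points on design B and 1.95 on design A. The gap exceeded 50 points for 366 genes (17.3%), 156 of them higher on design B and 210 higher on design A. Of the genes on both, 273 were high on design B and 223 on design A, and 36 were high on both. That is 13.2% of the first group and 16.1% of the second. Of all 2119 genes, 12.9% were high on design B, so the 16.1% lay near that share. The 13.2% likewise stands beside 223 of all 2119 genes that were high on design A. Of 11 pan-endothelial genes on both designs, 6 were high on design B, 4 on design A and 3 on both. For the 1589 genes on designs B and C but not A, the rank correlation was 0.21.

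The genes with the widest gaps between designs were measured by 1 probe set on each. Arhgap29, a GTPase-activating protein, read 1487, 1020 and 1354 on design B but 11.1, 12.8 and 13.7 on design A. Acvr1, a receptor for bone morphogenetic proteins, read 1017, 526 and 737 against 14.4, 14.2 and 16.7. Prkar2a, a regulatory subunit of protein kinase A, read 706, 581 and 446 against 12.7, 14.6 and 15.0. Rabepk, which was low on array 2, and the chaperone Hyou1 lay at 91.9 and 89.6 on design B against 4.35 and 4.06 on design A. In the other direction, Serinc3, a membrane protein, read 6.73, 4.85 and 5.97 on design B and 874, 1036 and 943 on design A. Gdi2, which keeps Rab GTPases soluble, read 6.42, 4.53 and 6.34 against 639, 724 and 593. The splicing factors Hnrnph1 and Tra2b lay at 2.47 and 4.91 on design B against 97.7 and 98.3 on design A, and Atp6v0e2, of the proton pump, at 3.69 against 97.9. Each gap was far wider than the spread over the arrays of either design.

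Probe sets of a gene also disagreed within design B. For 1594 genes with 2 probe sets the median gap was 25.5 points, and the rank correlation, with each pair entered in both orders, was 0.11. Of the 275 such genes that were high, 105 had their other probe set below position 40. By definition about 40% of all probe sets of an array lie below that position, so this count is near the share of all. The widest gaps belonged to Cd2ap, Kif5b, Pcgf5, Rbck1 and Srrm2. Cd2ap, an adaptor that links membrane receptors to actin, had probe sets at 98.16 and 97.49 and a further one at 0.13. The kinesin gene Kif5b read 1043, 811 and 883 on one probe set and 2.85, 4.18 and 5.76 on the other. Srrm2, a splicing scaffold, had probe sets at 99.52, 97.95, 38.39 and 1.68. Rbck1, a subunit of a linear ubiquitin ligase, had 13 probe sets from 0.59 to 99.74, and the highest of them read low on array 2.

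**Figure D4:**
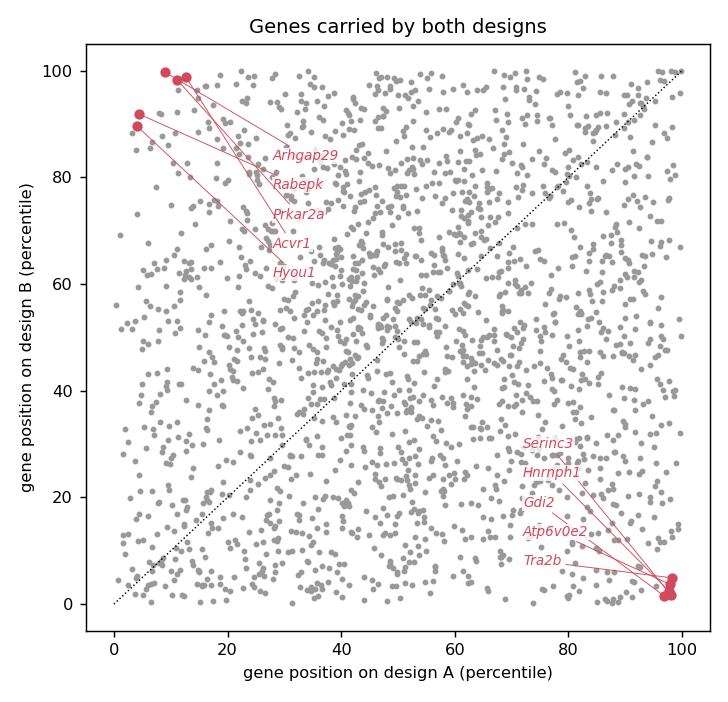
Position on design A (horizontal, percentile) against design B (vertical, percentile) for the 2119 genes on both; the dotted line marks equal positions and red points are the 5 genes with the widest gap in each direction. Points fill the whole square, and Arhgap29 lies at 99.7 on design B and 9.03 on design A.

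Names of probe sets tell whether their probes were chosen under relaxed rules, which includes probes shared with other transcripts. Of 9131 plain probe sets with 1 symbol, 8.99% were high, against 11.4% of 1450 with a marked name. The share was 18.7% for the 509 marked f and 3.80% for the 342 marked i. A high position of a probe set with shared probes cannot be assigned to 1 transcript, and which marked probe sets share probes was not checked here. Lpar6, Rbis, Abhd17b and Kank1 among the 40 highest genes rest on probe sets marked f, and Septin8 on one marked s. Sap130, Usp11 and Zmat2 rest on ones marked r, and Creb3l2 on one marked g. The highest probe set of Dysf is also marked g, but its other, at 99.3, is plain. Among the genes with the widest gaps within design B, the lowest probe set is marked r for Cd2ap, Kif5b and Pcgf5. That of Rbck1 is marked i, and that of Srrm2 is plain. The only probe set of Vegfa is marked r. At the bottom of the genes not on design A were Meioc, Minar2, Serpini2, Ufsp2 and Trappc2, with positions from 0.28 to 0.44 and readings of 4.95 or less. All but that of Minar2 have marked probe sets, so these positions do not show that the transcripts were absent.

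Bright probe sets that were low on array 2 formed a group of their own. Of 1141 named probe sets with a mean position over 90, array 2 lay over 0.5 log2 below both others in 87 (7.62%), array 1 in 4 (0.351%) and array 3 in 3 (0.263%). Array 2 lay as far above both others in 1 (0.0876%), array 1 in 33 (2.89%) and array 3 in 7 (0.613%). The median of array 2 against the mean of the others in the 87 was a log2 difference of -0.83, and over all 1141 it was -0.06. The 87 stand for 86 genes. Where these genes had other probe sets above the floor on design B (46 probe sets of 33 genes), array 2 differed from the others by a median of 0.00 log2, and 1 of the 46 was lower by over 0.5 log2. Their 26 probe sets on design C gave -0.04 and 14 on design A gave 0.08, with 1 lower by over 0.5 log2 on each. Arrays of equal number on different designs are not stated to share RNA. Of the 87, 14.9% were marked r, against 3.33% of the 1141.

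The deepest of these gaps were in Mall, in Acvr1b, an activin receptor with 1964, 558 and 1442, and in Treml1. Urgcp read 1337, 457 and 1116, and its other probe set lay at 15.4. Tceanc2 read 957, 302 and 663, with its other probe set at 20.2, and Gpd1l, a relative of glycerol phosphate dehydrogenase, 1610, 554 and 1156, with its lowest of 3 probe sets at 16.8. On design C, array 2 lay over 0.5 log2 below both others in 45 of 880 bright probe sets (5.11%), and on design A in 23 of 1084 (2.12%). What sets these readings apart was not tested. Over all 6277 named probe sets above the floor, 82 (1.31%) spanned more than 1 log2 unit, and array 2 was the lowest in 66 of them and array 1 the highest in 58. Without array 2 the count was 14, without array 1 it was 35 and without array 3 it was 53. With 50 added to each intensity it was 38.

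The widest spans that did not follow this pattern belonged to 3 genes. Malat1, a nuclear long noncoding RNA, read 841, 209 and 56.2, a span of 3.90 log2. Rbm5, an RNA-binding splicing factor, read 121, 83.3 and 35.6 on its highest of 4 probe sets. Zfp871, a zinc finger gene, read 133, 156 and 55.2. For these genes array 3 was the lowest, and no level can be given beyond the 3 readings.

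**Figure D5:**
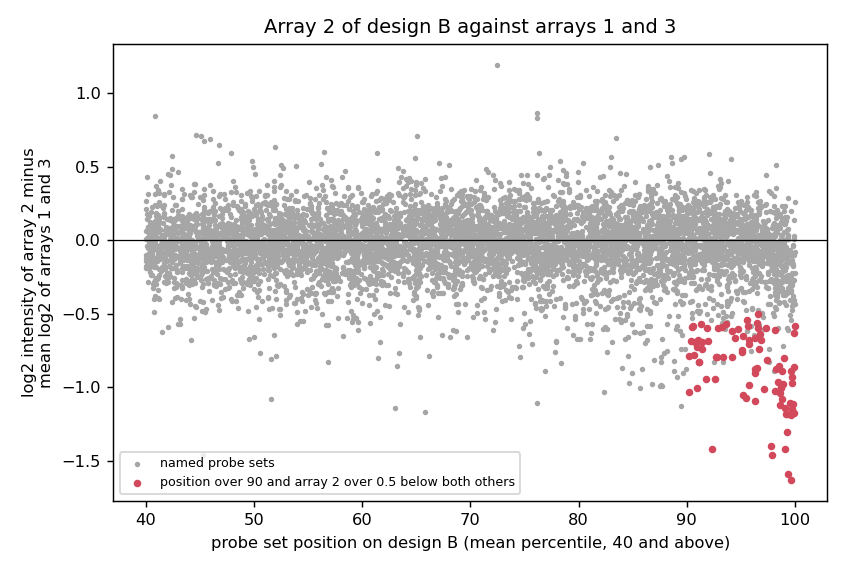
Log2 intensity of array 2 minus the mean log2 intensity of arrays 1 and 3 (vertical) against the mean position of each named probe set of design B at position 40 or above (horizontal); red points are the 87 with a position over 90 whose array 2 lies over 0.5 log2 below both others. Their median is -0.83, whereas the median over all 1141 is -0.06.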

How the data were processed

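The authors deposited 1 table per array design, holding a linear intensity for each probe set on each array. How probe pairs were summarised and scaled, and with which software, is not stated in the labels or file headers. RNA was amplified and biotin-labelled, per the labels' protocols. The number of arrays limits the precision.

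Symbols came from the platform annotation and were checked by Entrez ID in RefSeq (GRCm38.p6). On design B, 178 probe sets had several symbols and 1652 none. These were ranked but not named. Positions were ranks over all 12411 probe sets of an array, computed with Python 3.11.15 and pandas 2.3.3. No test was fitted, since all arrays share 1 condition. The calls were tested on simulated data.

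The members and lists were chosen with earlier results of these data known. The rule for named genes took the 40 highest not on design A, the 10 highest on both, the 3 highest and the lowest of each list and family, the 10 widest spans, the 5 widest gaps each way and within design B, and the 5 lowest. Other list members were named after their values were seen. Alternatives covered ranking, probe set kind, filters, an added constant, quantile normalization and leaving out each array. A further family of genes, beside those with under 5 members on design B, is not reported here.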

Additional observations from a re-analysis of the deposited data

How the results depend on the processing

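No paired analysis was possible because all arrays carry 1 condition, so no groups can be compared. Of genes not on design A, 355 instead of 649 were high when the mean over a gene's probe sets had to pass, and 313 in the top 5%. Leaving out an array gave 675 to 699. Their median position was 50.9 with ranks over named probe sets, 54.5 with plain probe sets, 61.5 by the highest probe set, 72.2 above the floor, 53.2 for genes on neither design A nor C, and 53.2 without probe sets low on array 2, an alternative added after seeing the data. Leaving out an array gave 53.4 to 53.5. The pan-endothelial median was 94.4 with ranks over named probe sets, 95.6 by the highest probe set and 95.7 above the floor, and 94.8 to 95.1 without an array. The rank correlation between designs A and B was 0.05 with plain probe sets, 0.09 by the highest probe set, 0.06 above the floor and, in alternatives added after seeing the data, 0.09 without probe sets low on array 2 and 0.06 for genes with 1 probe set on each. It was 0.09 without any 1 array. The count spanning over 1 log2 unit, 82, was 38 with 50 added, 155 with no floor and 14 to 53 without an array. A low position bounds nothing, since detection calls were not used.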

Other observations

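Further genes known from endothelium lay just below the 40 highest of those not on design A. They were picked from ranks 41 to 200 after their values were seen and support nothing beyond their own readings. Rasgrp3, an activator of Ras and Rap downstream of VEGF, read 1067, 718 and 795. Arhgef15, an endothelial exchange factor, read 681, 739 and 649, and Dock6, an exchange factor for Rac and Cdc42, 821, 602 and 651. Tmem88, a membrane inhibitor of Wnt signalling, read 599, 699 and 692. Card10, a scaffold of NF-kappaB signalling, read 850, 729 and 721 on the highest of its 3 probe sets. Etv6, an ETS repressor, read 669, 593 and 672. No array lay over 0.5 log2 below both others in these 6 genes.

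Probe sets with no symbol in the annotation lay lower than named ones, with a median position of 34.0 against 52.8. Of the 1652, 54 (3.27%) were in the top 10% of all 3 arrays, beside 9.33% of the named probe sets. The brightest read 4970, 2636 and 4899, so it was low on array 2, and the next 2700, 2323 and 2262. Which transcripts they measure was not analysed here.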
